A study of Homo sapiens with 4 samples.

Results

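The regions described here are CEBPB binding regions of NCM460, a human colon epithelial cell line, whose interval occurs with 2 or more different summits in the authors' deposited IDR table. The irreproducible discovery rate (IDR) measures how well the ranks of peaks match between replicates. A summit is the position of highest read pileup inside a peak. The members were thus chosen by the summit positions of the peak calls, which depend on the same read pileups as width and fold, so these measures are given as descriptions. Of 25602 distinct regions on chromosomes 1 to 22 and X, 1571 met this rule (6.14%, 95% exact binomial interval 5.85 to 6.44%), and 24031 occurred with a single summit. The members held 3274 of the 27305 entries of the table on these chromosomes. Among them, 1457 had 2 summits, 98 had 3, 14 had 4 and 2 had 5. The series comprised 2 samples immunoprecipitated with an antibody to CEBPB and 2 input samples, all of cultured NCM460 cells with no treatment named. The replicates are described as independent, but nothing used here says whether they came from separate cultures. Peak lists of the 2 CEBPB samples and the IDR table were analysed.

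CEBPB is a C/EBP family transcription factor with a basic leucine zipper domain. It binds DNA as a homodimer or as a heterodimer with relatives, at short palindromic sites, and in epithelia it is known for its part in inflammatory and stress responses. A ChIP-seq peak is wider than the site beneath it, because sheared fragments extend to both sides, so binding at neighbouring sites can merge into a single interval with several summits.

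The label of these regions held for part of them only. The intervals and summits that open each entry of the authors' deposited table belonged to a further list, called the joint list here. Its intervals equalled an interval of replicate 1 at 21 and of replicate 2 at 39 of 25827 regions over all sequences. The sources used here do not say how the joint list was made. At regions with a single summit, the pileup of the joint list was a median of 0.89 times the sum of the pileups of the replicates (quartiles 0.83 and 0.93). Each entry pairs a joint summit with a summit of replicate 1 and with a summit of replicate 2, and the same replicate summit could serve several joint summits.

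In 837 of the 1571 members (53.3%, interval 50.8 to 55.8%), every joint summit was paired with a summit of its own in both replicates. These are called resolved regions below, and they made up 3.27% of all reproducible regions. In 548 members (34.9%, interval 32.5 to 37.3%), all joint summits were paired with the same summit of replicate 1 and with the same summit of replicate 2. These are called unresolved regions. The other 186 members (11.8%) were mixed. In 61 of the mixed regions the summits were all separate in replicate 1 only, in 85 they were all separate in replicate 2 only, and in 40 they were incomplete in both replicates. Of the 114 members with 3 or more summits, 45 were resolved, 55 were mixed and 14 were unresolved.

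The second summit set these classes apart. In resolved regions the tallest joint summit had a median fold over background of 20.1 (quartiles 15.9 and 25.5) in the authors' deposited table, and the second tallest by pileup had 14.2. In unresolved regions the tallest had 16.98 and the second had 3.10 (quartiles 2.63 and 3.66). The second summit of unresolved regions rested on a median of 21 extended reads, called fragments here, over a background of 5.00 expected fragments, whereas the second summit of resolved regions rested on 111. Its fold was under 5 in 524 of 548 unresolved regions (95.6%) and in 0 of 837 resolved regions, which allows a share of up to 0.358% (3 counts of the total). Among single-summit regions, 7 of 24031 had a joint fold under 5. Pairing with a separate summit defined the classes, so these values describe them and no test was made.

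**Figure D1:**
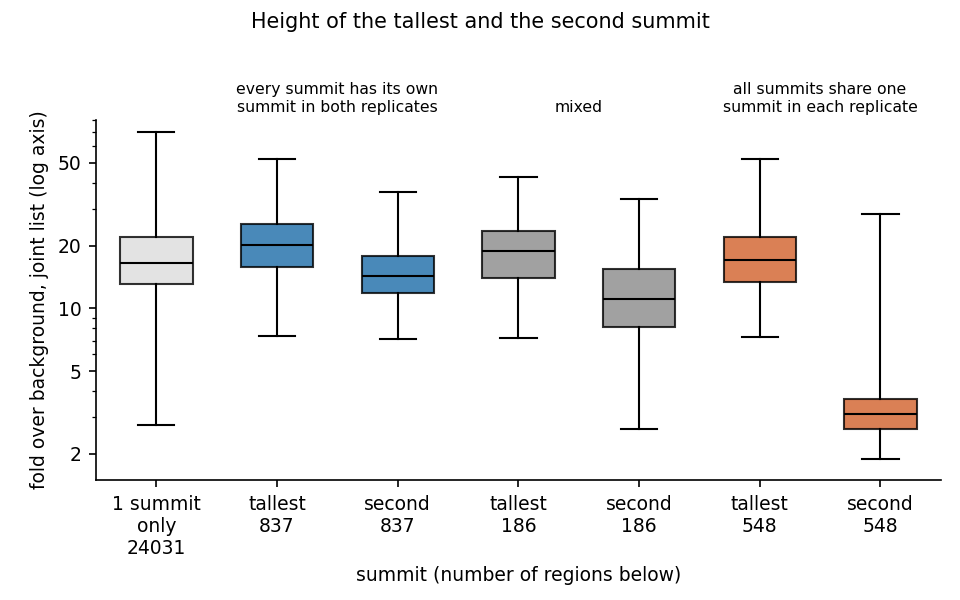
Fold over background in the joint list, on a log axis, for the summit of single-summit regions and for the tallest and second summits of members with every summit separate in both replicates, mixed members, and members whose summits share a single summit in each replicate. Boxes span the quartiles with the median as a line, and whiskers reach the lowest and highest value. The second summit of the last class has a median of 3.10, against 14.2 in the first.

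Around the second summit of unresolved regions the replicates rarely had a summit. The nearest summit of any peak lay 341 bp away in replicate 1 and 340.5 bp away in replicate 2 at the median. In 542 of 548 regions (98.9%), neither replicate had a summit within 100 bp, and both replicates had one in 0 of 548, which allows a share of up to 0.547%. In resolved regions the second summit lay a median of 7 bp from a summit of replicate 1 and 5 bp from a summit of replicate 2, and 836 of 837 had both within 100 bp. The entries of an unresolved region pair the same replicate summits, and the IDR of the second entry repeated that of the first. The −log10 of the global IDR had a median of 2.38 for both, and the values differed by at most 0.05 in all 548. In resolved regions the medians were 3.03 for the tallest and 1.93 for the second summit, and 23 of 837 pairs of values lay within 0.05.

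The spacing of neighbouring summits had quartiles of 275 and 429 bp. Over all 1703 pairs of neighbouring joint summits, the median spacing was 338 bp and the range was 18 to 1392 bp. A joint summit had its own summit in a replicate where no other joint summit of the region was paired with that summit. Both summits of a pair had their own in each replicate in 893 pairs (52.4%) and in only 1 replicate in 162 pairs (9.51%). Both were paired with the same summit in each replicate in 605 pairs (35.5%), and the other 43 pairs (2.52%) met none of these definitions. The 893 pairs separate in both had a median spacing of 356 bp (quartiles 283 and 473 bp, lowest 148 bp). Of these, 29.0% were 200 to 299 bp apart, 29.3% were 300 to 399 bp apart, 18.4% were 400 to 499 bp apart, and 20.8% were 500 bp or more apart. Under 200 bp lay 22 pairs (2.46%), and the shortest peaks called at all measured 153 and 156 bp in replicates 1 and 2. The 605 pairs that shared a summit in each replicate had a similar median, 337 bp (quartiles 292 and 397 bp), and a narrower spread than the pairs separate in both: 79.3% lay between 250 and 449 bp, against 57.1%. The 162 pairs separate in 1 replicate only were closer, with a median of 244 bp (quartiles 201.2 and 312.5 bp).

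**Figure D2:**
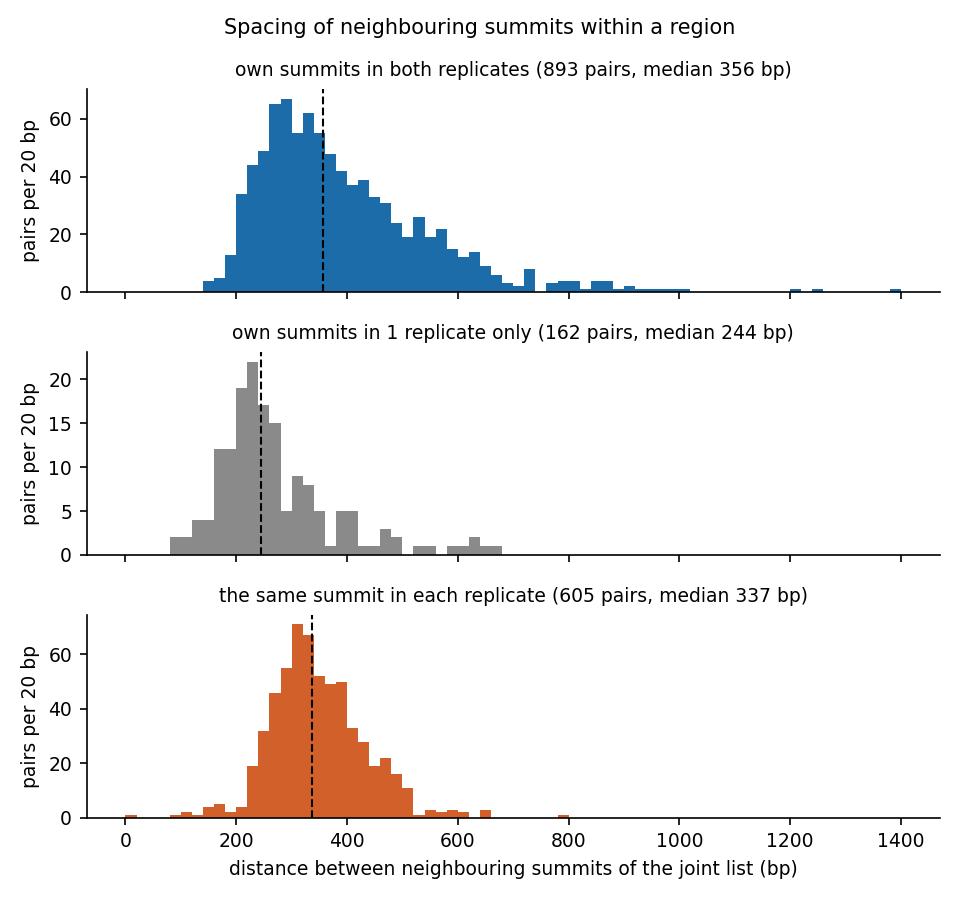
Number of pairs of neighbouring summits per 20 bp of spacing, for 893 pairs with their own summits in both replicates, 162 with their own in 1 replicate only and 605 paired with the same summit in each replicate, leaving out 43 other pairs. Dashed lines mark medians of 356, 244 and 337 bp, and the last set is narrower than the first.

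The spacing of separate summits was close to the same in both experiments. The median was 360.0 bp in replicate 1 and 357 bp in replicate 2 over the 893 pairs, with quartiles of 282 and 475 bp, and of 283 and 472 bp. The spacings of a pair differed between replicates by a median of 15 bp (quartiles 7 and 27 bp). The difference was at most 10 bp in 38.0% of pairs, at most 20 bp in 62.7% and at most 50 bp in 93.3%. Across pairs the Spearman rho of the replicates' spacings was 0.969. The pairs had been chosen for matched summits, so the correlation is a description. Single summits of resolved regions were placed about as precisely as those of single-summit regions, with a median shift between replicates of 9 bp (1724 summits) against 8 bp (24031 summits). The 45 resolved regions with 3 or more summits had a median spacing of 361 bp. Their spacing was uneven: the widest was a median of 1.36 times the narrowest in the same region (quartiles 1.23 and 1.99).

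Members were wide. Their joint intervals had a median width of 783 bp (quartiles 647 and 960 bp), against 409 bp (332 and 530 bp) for single-summit regions, and they covered 1.32 Mb, or 10.7% of the bases in reproducible regions. Resolved regions had a median width of 875 bp, mixed regions 766.5 bp and unresolved regions 666.5 bp. In the replicates' own intervals, resolved regions were 736 bp wide in replicate 1 and 763 bp in replicate 2 at the median, and unresolved regions were 413 and 453.5 bp. Single-summit regions were 342 and 354 bp wide in the replicates. Width limits the spacing that a region can hold, so the share of members follows width partly by construction. It was 0.01% under 400 bp (1 of 11358 regions), 6.21% from 500 to 599 bp, 22.8% from 700 to 799 bp and 47.1% at 1000 bp or more (332 of 705, interval 43.4 to 50.9%). Unresolved regions were most frequent at 700 to 799 bp, with 8.53% of regions there, and resolved regions at 1000 bp or more, with 36.7%.

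**Figure D3:**
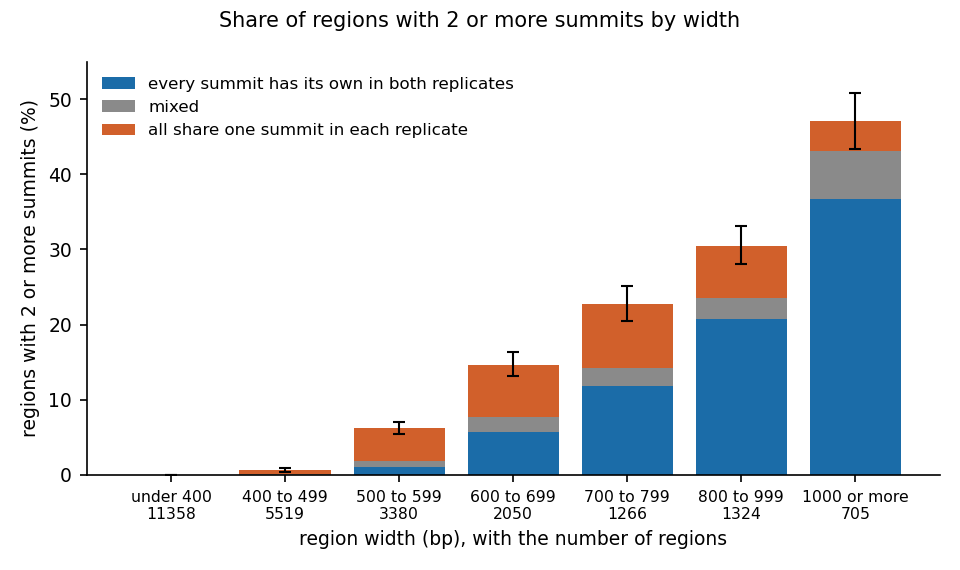
Percent of reproducible regions with 2 or more summits by region width, split into members with every summit separate in both replicates, mixed members and members whose summits share a single summit in each replicate. Error bars are 95% exact binomial intervals of the total, which reaches 47.1% at 1000 bp or more, where 36.7% are separate in both.

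The median height of members was above that of single-summit regions, and within the members it followed the classes. In the replicates' own lists, the median fold over background at the strongest summit was 19.5 for members in both replicates, and 15.04 and 15.73 for single-summit regions in replicates 1 and 2. Resolved regions had medians of 21.8 and 21.8, while unresolved regions, at 16.2 and 16.5, were close to single-summit regions. In fragments of replicates 1 and 2, resolved regions had medians of 96 and 118, unresolved regions 65 and 83.5, and single-summit regions 57 and 75. The median background was also higher, at 3.00 and 3.20 expected fragments in resolved regions against 2.14 and 2.65 in single-summit regions, and its part in the result was not tested. Across deciles of the mean fold, the share of resolved regions was 0.23% in the weakest (8.73 to 10.2) and 6.87% in the strongest (30.4 to 75.7). The share of unresolved regions stayed between 1.72% and 2.58% in all 10 deciles.

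At equal width the medians of fold were closer or in the other order. Between 500 and 599 bp, members had a median mean fold of 14.6 (quartiles 11.9 and 18.4) and single-summit regions had 20.1 (14.1 and 28.2). Between 600 and 699 bp the values were 17.1 and 20.1, between 700 and 799 bp 20.7 and 19.7, and between 800 and 999 bp 21.5 and 20.0. At 1000 bp or more, members had 24.97 (quartiles 19.0 and 32.0) and single-summit regions had 21.1 (13.8 and 29.4). The quartile ranges overlapped in every one of these bins. Fold and width come from the same peak calls as the rule, so no test was made.

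The rule did not collect every region with several summits in the replicates. By the replicates' own lists, 1902 reproducible regions lay in intervals that held 2 or more summits in both replicates, and 773 of them (40.6%, interval 38.4 to 42.9%) were members. The other 1129 had a single entry in the authors' deposited table. They had a median joint width of 764 bp and a median mean fold of 16.0, against 409 bp and 15.6 for all single-summit regions. Among resolved regions, 742 of 837 (88.6%) had 2 or more summits in a single interval of replicate 1 and 764 (91.3%) in replicate 2. The summits of 127 resolved regions in replicate 1 and of 92 in replicate 2 fell into more than 1 interval of that replicate. Among all peaks, 6.50% of replicate 1 intervals and 5.97% of replicate 2 intervals had 2 or more summits, with median spacings of 286 and 288 bp.

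Within resolved regions of exactly 2 summits (792), the weaker summit had by definition a called summit of its own in each replicate. Summits too low to be called could not enter, so the values below describe a selected set. The weaker summit had a median of 51 fragments in replicate 1 (quartiles 37 and 74) and 68 in replicate 2 (51 and 94.2). The stronger held 94 and 117. At the median, the weaker summit reached 0.62 times the stronger in replicate 1 and 0.66 times in replicate 2. In replicate 1 the median ratio was 0.70 for summits under 300 bp apart, 0.59 at 300 to 399 bp, 0.57 at 400 to 499 bp and 0.59 at 500 bp or more, and in replicate 2 it was 0.73, 0.65, 0.60 and 0.62. Fragments reached at most 299 in replicate 1 and 312 in replicate 2, and the part of an upper limit on fragments in these ratios was not tested. The taller summit lay at the lower coordinate in 47.9% of regions in replicate 1 (interval 44.3 to 51.5%) and in 47.6% in replicate 2 (44.1 to 51.2%), and both intervals included an even split. Fragments are extended reads, not independent molecules, and intervals cover counting error only.

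The order of the 2 summits was the same in both replicates in 591 of 786 regions by fold (75.2%, interval 72.0 to 78.2%), leaving out regions with a tie. By fragments it was the same in 666 of 772 (86.3%, interval 83.6 to 88.6%). By −log10 p it was the same in 659 of 784 (84.1%). Where the taller summit of replicate 1 had under 1.25 times the fragments of the other, replicate 2 had the same order by fragments in 139 of 203 regions (68.5%, interval 61.6 to 74.8%). From 1.25 to under 2 times it was the same in 264 of 303 (87.1%, interval 82.8 to 90.7%), and at 2 times or more in 263 of 266 (98.9%, interval 96.7 to 99.8%). The log2 ratio of the left to the right summit correlated across the 792 regions with a Spearman rho of 0.885 between replicates, and it differed between them by a median of 0.29. These regions had been chosen for summits paired separately in both replicates, so the order and the correlation are descriptions. Regions with summits separate in only 1 replicate were left out.

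To ask whether the balance of neighbouring summits changed between the experiments, the fragments of 2 summits in 2 replicates were compared per region with Fisher's exact test (two-sided). Resolved regions with exactly 2 summits at least 200 bp apart in both replicates were used, since closer summits share reads. DNA of 200 to 500 bp was selected, so summits further apart than 200 bp may share reads too, which was not tested. Mixed and unresolved regions were not tested, so a summit found in only 1 replicate could not be called. Of 762 regions tested, 7 had an adjusted p of at most 0.05 by the Benjamini-Hochberg method (0.919%), 4 with the left summit relatively higher in replicate 2. The unadjusted p was under 0.05 in 88 regions (11.5%). Among regions whose entries had a global IDR of at most 0.01, 1 of 321 was called. The test compares 2 libraries and covers counting error only, so ordinary spread between replicates adds to both numbers. The median size of the difference over all tested regions was 0.29 on the log2 scale, against 1.53 in the 7 called.

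**Figure D4:**
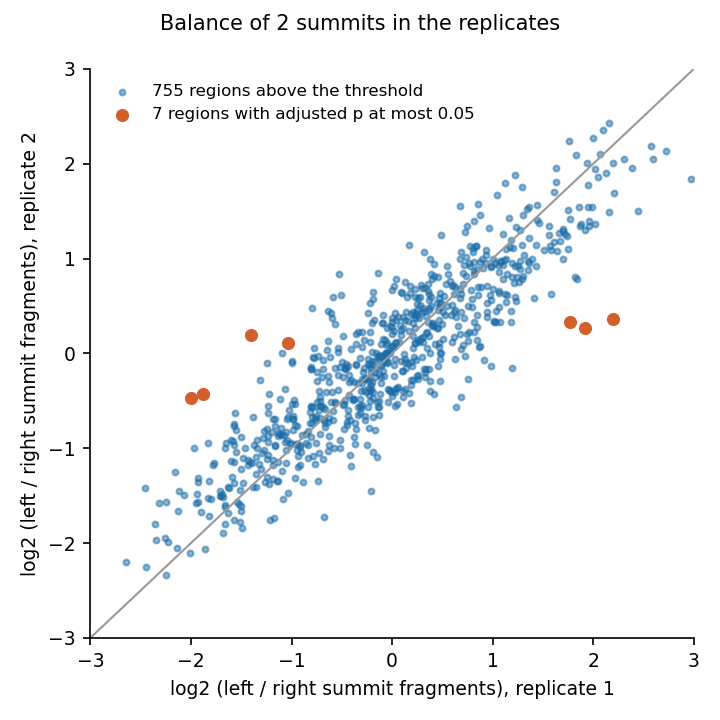
Log2 ratio of the fragments at the left summit to those at the right summit in replicate 1 (horizontal) and replicate 2 (vertical), for 762 regions with 2 summits at least 200 bp apart. Points on the diagonal have the same balance in both replicates, and the 7 larger points have an adjusted p of at most 0.05 by Fisher's exact test.

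The clearest shift of balance lay in band 1p31.1 on chromosome 1 at 79377609 to 79378402. Its left summit had 138 fragments in replicate 1 and 153 in replicate 2, whereas its right summit, 337 bp away, had 30 and 119. The log2 ratio of left to right was 1.84 units lower in replicate 2 (exact test, p = 1.6e-08, adjusted p = 1.2e-05). The replicates had close to equal fragments at the left summit and differed at the right. In band 10q11.23 (chromosome 10, 51120186 to 51120838) the left summit went from 33 to 78 fragments and the right from 87 to 68 (exact test, adjusted p = 0.008). In band 10p15.3 (chromosome 10, 758101 to 758869) the left went from 119 to 87 and the right from 35 to 69 (exact test, adjusted p = 0.017). By fragments the summits moved in opposite directions at both sites, and at 10q11.23 the taller summit was another one in each replicate. By fold the right summit of 10q11.23 was taller in both replicates, with 20.4 and 13.85 against 9.58 and 9.05. The background of its left summit was higher in replicate 2 than in replicate 1. At 10p15.3 the left summit had folds of 37.2 and 17.6 and the right had 8.36 and 18.7, so by fold the taller summit differed there. In band 5q31.3, which carries NR3C1, the gene of the glucocorticoid receptor, the region on chromosome 5 at 142689140 to 142690017 had 22 and 84 fragments at its left summit and 81 and 113 at its right (exact test, adjusted p = 0.033). In band 12q21.33 (chromosome 12, 90415572 to 90416650) the left summit had 72 and 65 fragments and the right had 19 and 54 (exact test, adjusted p = 0.033). In each of these 5 regions the summit spacing differed by at most 37 bp between replicates.

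Of the 10 members with the highest fold, 4 were resolved, 5 were unresolved and 1 was mixed. Positions here are of the hg19 build, counted from 1. No region is assigned to a gene, and a gene named with a band is background on the band only. The highest was a resolved region in band 9p11.2, next to the centromere of chromosome 9 (46290980 to 46291869), with a fold of 61.8 ± 28.4 (SD, n = 2). Its right summit had a fold of 81.9 in replicate 1 and 41.7 in replicate 2 but nearly equal fragments, 176 and 173, over backgrounds of 1.00 and 2.34. Its left summit, 413 bp away, had 54 and 61 fragments. The fragments of each summit were alike in the replicates, while the backgrounds differed, and that of replicate 1 was the lowest value in its list. Fragments are not adjusted for differences between the lists: single-summit regions had medians of 57 in replicate 1 and 75 in replicate 2. The part of the background in the difference of fold was not tested.

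A region in band 8q21.2 (chromosome 8, 86847651 to 86849374) was resolved into 3 summits, with a fold of 59.4 ± 4.05 (SD, n = 2). Its middle summit held 211 and 237 fragments in replicates 1 and 2. The summit 470 bp to the left held 113 and 108, and the summit 361 bp to the right held 39 and 44. The order of the 3 summits was the same in both replicates. In band 21q22.12, which carries RUNX1, a transcription factor gene, the region on chromosome 21 at 36207760 to 36209187 had a fold of 55.6 ± 9.21 (SD, n = 2). Its summits were 595 bp apart in replicate 1 and 594 bp apart in replicate 2, with 206 and 234 fragments at the left and 58 and 55 at the right. The region in band 5q34 (chromosome 5, 168051734 to 168052422) had a fold of 52.5 ± 5.79 (SD, n = 2) and summits only 218 bp apart, with 171 and 213 fragments at the left and 82 and 135 at the right.

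The 5 unresolved regions among these 10 were a tall summit with a low neighbour. In band 7q31.32 (chromosome 7, 123438011 to 123438754) the tall summit had 167 and 186 fragments in the replicates and a joint fold of 52.3 in the authors' deposited table, and the second joint summit, 406 bp away, had a joint fold of 2.14. In band 5q23.1 (chromosome 5, 119474764 to 119475347) the joint folds were 43.1 and 2.45 at a spacing of 308 bp. In band 17q11.2 (chromosome 17, 25815744 to 25816826) they were 45.0 and 2.88, and in band 3p14.3 (chromosome 3, 57787502 to 57788148) they were 44.5 and 3.14. The fifth, in band 5q23.2 (chromosome 5, 124299084 to 124299730), had a higher second summit, with a joint fold of 8.68 and 53 joint fragments 249 bp from the tall one. None of these second summits had a replicate summit closer than 245 bp. In the mixed region, in band 9q21.32, which carries the corepressor gene TLE1 (chromosome 9, 84402595 to 84403671), replicate 2 had 3 summits with 111, 137 and 243 fragments, and replicate 1 had 2, with 85 and 203. The SD between replicates exceeded the span of the 10 mean folds, 9.34, at 3 of the 10 sites, so their rank is not resolved.

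**Figure D5:**
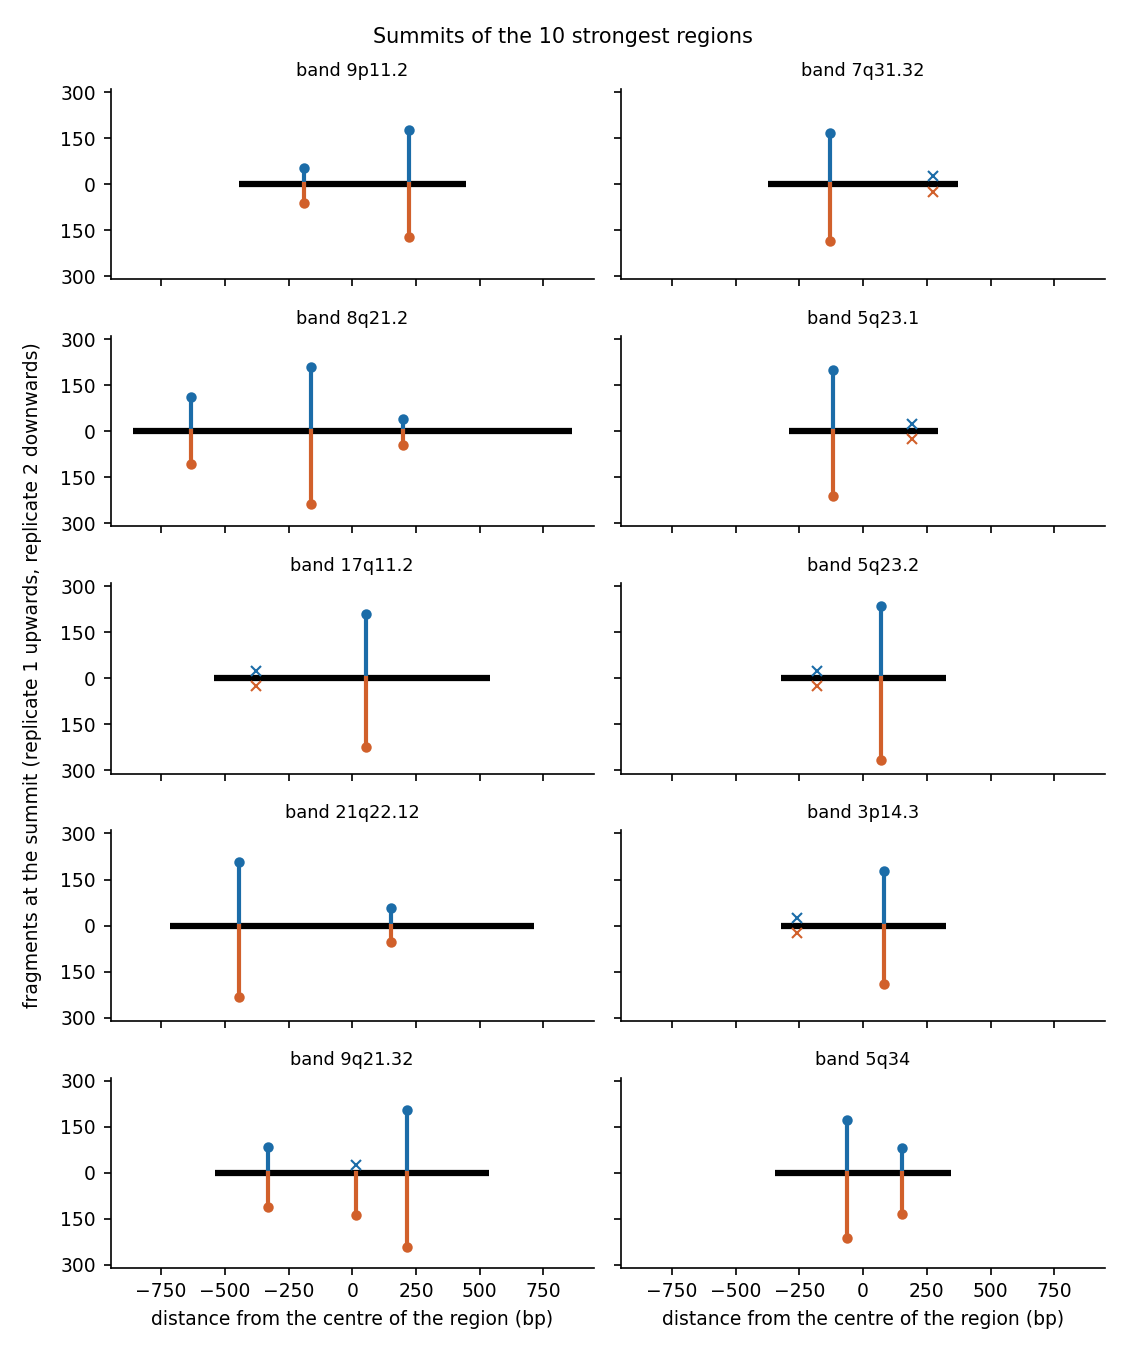
Summits of the 10 members with the highest mean fold, placed by their distance from the centre of the region, with fragments of replicate 1 upwards and of replicate 2 downwards and the region as a black bar. Crosses mark joint summits without a summit of that replicate within 100 bp, which occur in both replicates at 5 of the 10 regions.

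The members with the most summits reached 5. The first, in band 6q21 (chromosome 6, 111549323 to 111551997), was 2675 bp wide, the widest of all members, and its summits spanned 1832 bp. Its 5 joint summits were paired with 4 summits in each replicate, with 58, 63, 78 and 120 fragments from left to right in replicate 1 and 62, 99, 94 and 201 in replicate 2. The remaining joint summit shared its partner with a neighbour, had a joint fold of 4.14 and lay 359 bp from the nearest summit of replicate 1. The second, in band 15q24.2 (chromosome 15, 75411015 to 75412970), was also paired with 4 summits in each replicate, with 49, 63, 122 and 74 fragments in replicate 1 and 65, 91, 137 and 94 in replicate 2. The order of these 4 by fragments was the same in both replicates. By fold it differed, with 18.6, 14.6, 29.2 and 17.4 in replicate 1 and 14.5, 14.75, 22.1 and 20.9 in replicate 2.

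In band 13q22.1, which carries KLF5, a gene of an epithelial zinc finger factor, the region on chromosome 13 at 73614542 to 73616044 had 4 joint summits, paired with 3 summits in each replicate. These had 69, 108 and 110 fragments in replicate 1 and 91, 134 and 133 in replicate 2, at spacings of 595 and 331 bp in replicate 1 and of 592 and 316 bp in replicate 2. The 2 tall summits were equal within 2 fragments in each replicate. The region in band 10p12.1 (chromosome 10, 29352292 to 29354159) had 4 joint summits, of which replicate 1 showed 2 and replicate 2 showed 3. Its highest folds, 20.4 in replicate 1 and 50.3 in replicate 2, belonged to different summits. The third joint summit had folds of 15.07 and 50.3 in replicates 1 and 2, and the fourth had 20.4 and 34.45. By fragments the third was the taller in both replicates, with 129 and 189 against 95 and 128 at the fourth. In replicate 1 the background was higher at the third summit than at the fourth. The region in band 15q23 (chromosome 15, 71586869 to 71588963) was resolved into 4, with 70, 123, 137 and 112 fragments in replicate 1 and 73, 151, 180 and 161 in replicate 2. By fragments, the same summits were lowest and highest in both replicates. By fold, the highest was the fourth summit in replicate 1 (27.9) and the third in replicate 2 (35.2).

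The widest spacing was 1392 bp, in a resolved region of band 10q23.1 (chromosome 10, 87401184 to 87403038). It was 1395 bp in replicate 1 and 1396 bp in replicate 2, with 181 and 215 fragments at the left summit and 83 and 62 at the right. A region in band 15q22.33, which carries SMAD3, a signal transducer of the TGF-beta pathway, followed on chromosome 15 at 67341081 to 67342791. Its summits were 1250 and 1246 bp apart, and they were of like height, with 173 and 162 fragments at the left and 152 and 173 at the right. The third, in band 9p13.3 (chromosome 9, 34179833 to 34181391), had summits 1219 and 1217 bp apart. The replicates placed these 3 pairs within 4 bp of the same spacing.

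The closest joint summits were not separate in both replicates. In band 14q32.2 (chromosome 14, 100841706 to 100842260) an unresolved region held a pair 18 bp apart, both with a joint fold of 2.12 and 24 joint fragments, beside a tall summit with 180. In band 5q35.2 (chromosome 5, 173782140 to 173782727) a pair 86 bp apart had 252 and 250 joint fragments. Replicate 2 placed them 113 bp apart, with 199 and 193 fragments, while replicate 1 had a single summit with 171. In band 18q12.3 (chromosome 18, 42904448 to 42904999) a pair 99 bp apart had 132 and 129 joint fragments, and each replicate had a single summit. That of replicate 1 lay 31 bp from the left joint summit, and that of replicate 2 lay 3 bp from the right one. In these 3 pairs the summits were of nearly equal height.

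Position in the genome was not used by the rule. The share of members among reproducible regions ran from 3.41% on chromosome 22 (15 of 440, interval 1.92 to 5.56%) to 9.24% on chromosome 21 (29 of 314, interval 6.27 to 12.99%). The intervals of all other chromosomes included the share over all chromosomes, except that of chromosome 9 (7.99%, 6.47 to 9.72%). Chromosome 21 also had the highest share of resolved regions, 6.37%, and chromosome 22 the lowest, 1.36%. These are the extremes of 23 chromosomes and were not tested. By Giemsa stain of the cytogenetic bands, members made up 5.97% of regions in Giemsa-negative bands (810 of 13566, interval 5.58 to 6.38%) and 6.68% in the darkest bands (190 of 2844, interval 5.79 to 7.66%), and the classes between ranged from 5.66% to 6.69%. The intervals of the stain classes for all members overlapped. For resolved regions the shares were 3.35% and 3.02%, the other way round, and no intervals were computed. Among bands with at least 8 members, 10q21.2 had the highest share (9 of 57, interval 7.48 to 27.9%), and 11p13 had the most resolved regions, 8 of 88. The share over all regions was 6.14%. Bands were listed by their number of members, which the intervals do not allow for, and these extremes were not tested.

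The surroundings of the regions were counted as well. Within 12500 bp of its edges, 763 of 1571 members (48.6%, interval 46.1 to 51.1%) had another region, against 9623 of 24031 single-summit regions (40.0%, interval 39.4 to 40.7%). The share was 49.9% for resolved regions and 45.6% for unresolved regions (interval 41.4 to 49.9%). The difference was not tested, and members of the same group of regions are not independent.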

How the data were processed

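Peak lists of 2 CEBPB ChIP samples and the IDR table of the pair were analysed. Per the labels' protocols, fragments of 200 to 500 bp were selected, PCR ran for 18 cycles and reads were paired, of 100 bases. MACS2 2.1.2 is the peak caller and Bowtie2 2.3.4 the aligner among the tools in the submitters' processing notes, which also list SAMtools 1.9, bedtools 2.25.0, FastQC 0.11.7 and the hg19 build without settings. The sources used here do not say whether duplicate reads were removed or how the IDR was run.

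For each summit, the deposited lists give the fold over background, the −log10 of its p-value and q-value, and a score. The deposited IDR table adds an IDR score and the −log10 of the local and global IDR, which is at most 0.05 in every entry. For all 27544 entries, its interval and summit pairs matched the lists of both replicates and served as keys, and fold, p and fragments of each replicate came from those lists. The 2 columns of values per replicate that remain in the table were not used.

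Fragments were recovered from the deposited fold (pseudocount 1) and −log10 p, by searching scales from 0.5 to 1. With scales of 0.927, 0.800 and 0.869 for replicate 1, replicate 2 and the joint list, 100% of summits gave whole numbers within 0.005 on the −log10 p. The largest values were 299, 312 and 316, close to each other although the joint list is otherwise near the sum of the replicates. The median summit had 24 fragments in replicate 1 and 28 in replicate 2. Total reads per library are not held in the lists.

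Named regions were those with the most summits (5), the highest mean fold over replicates (10), the widest (3) and closest (3) spacing, and the smallest adjusted p of balance (5). Bands of hg19 came from circlize 0.4.16. Neither sequence nor annotation of hg19 was used, and the label of the cell line could not be checked against markers. The members and the quantities described were chosen with earlier results of these data known, and the classes by paired summits after these files were seen. Recovery and the exact test were tested on simulated data. Statistics used SciPy 1.17.1 and statsmodels 0.14.6, tables pandas 2.3.3 and NumPy 2.4.6, and plots matplotlib 3.10.9, under Python 3.11.15.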

Additional observations from a re-analysis of the deposited data

Results flagged for a closer look

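Outside chromosomes 1 to 22 and X, which the results above leave out, 14 of 225 reproducible regions had 2 or more summits (6.22%, 95% exact binomial interval 3.44 to 10.2%), close to the share of 6.14% on the chromosomes analysed. They are given here because no comparison above used them. Of these, 7 lay on alternative haplotype sequences of chromosome 6, which are versions of the same stretch of the chromosome, 6 on chromosome Y and 1 on an unlocalised sequence of chromosome 1. In 5 of the 14, every summit had its own summit in both replicates.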

How the results depend on the processing

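The number of regions with 2 or more summits, 1571, depended on the definition. At a global IDR of at most 0.01 it was 813 of 15504 regions (5.24%, against 6.14% in the main count). Of these, 377 were resolved and 362 were unresolved, against 837 and 548 in the main count. The number was 882 with outermost summits at least 160 bp apart in both replicates. It was 837 with every summit separate in both replicates and 888 with at least 2 paired summits in both, these 2 chosen after seeing the data. Leaving out a replicate and counting summits in the own list of the other gave 2750 to 3156. It stayed within 1.5 times at 1585 over all sequences, 1568 at 100 bp or more between outermost summits and 1902 with 2 or more summits in both own lists. The median spacing of 338 bp became 350 bp at the stricter IDR and 356 bp for pairs separate in both replicates, and 346 to 356 bp without replicate 1 or 2. The excess width of 374 bp over single-summit regions became 354 bp at the stricter IDR, 466 bp for resolved regions, and 276 to 293 bp in the intervals of a single replicate. The ratio of median fold, 1.27, became 1.11 with the mean over summits, 1.15 at the stricter IDR, 1.42 in fragments and 1.40 for resolved regions, and 1.24 to 1.30 without a replicate. The order of summits was the same in 75.2% by fold, 84.1% by −log10 p, 86.3% by fragments and 71.7% at the stricter IDR. Of 7 calls of changed balance, 1 was left at the stricter IDR, with 321 regions tested, and there were 8 at 160 bp and 5 at 300 bp. The share in Giemsa-negative bands, 5.97%, became 4.89% at the stricter IDR, 11.2% among regions at least as wide as the median single-summit region and 3.35% for resolved regions, and that in the darkest bands, 6.68%, became 5.66%, 12.4% and 3.02%. The excess of members with a neighbour, 8.52 percentage points, became 5.20 within 5 kb, 9.90 within 25 kb and 9.90 for resolved regions. The causes of these shifts were not tested. Leaving out a replicate gave no value for the order or balance of summits. No paired analysis was possible because no peak list of the input samples was analysed, which leaves no second group to pair.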
